A study of Mus musculus with 8 samples.

Results

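The clustered protocadherins are a family of cell adhesion genes that lie side by side on mouse chromosome 18, in an alpha, a beta and a gamma cluster. They were taken as the protein-coding genes of mm10 (RefSeq, GRCm38.p6) whose symbols start with Pcdha, Pcdhb or Pcdhg followed by a letter or digit. This gave 57 genes of the 21523 protein-coding genes that had a score, with 14 in the alpha, 22 in the beta and 21 in the gamma cluster. One further symbol of the family, Pcdhgb8, is listed as a pseudogene and was left out. Replication timing had been profiled in mouse embryonic stem cells by Repli-seq: cells were given a 2 h pulse of the nucleotide analogue BrdU, separated by DNA content into early and late S-phase fractions, and the newly made DNA of 40000 cells per fraction was recovered with an antibody and sequenced. The dTAG group (2 profiles, 4 samples) was collected 2 days after treatment with dTAG, a small molecule that directs a tagged protein to degradation, here YY1, a zinc finger factor that binds promoters and enhancers. The control group (2 profiles, 4 samples) carries no treatment in its labels. The sources used here do not name the tagged allele, the cell line or any other allele, and no marker of the cell type was measured.

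Each protocadherin gene of the alpha and gamma clusters has its own promoter and its own large variable exon, which is joined to constant exons shared by the whole cluster, while the beta genes have a single exon each. In neurons, single cells choose a few of the variable promoters, in a process that involves CTCF, cohesin and DNA methylation, and the resulting mix of proteins lets a neuron tell its own branches from those of others. The last genes of the alpha and gamma clusters, named C-type, are known to be expressed more broadly among neurons. Replication timing is the order in which stretches of the genome are copied during S phase, and early replication is commonly found at gene-rich, open chromatin. The question put here was where these genes lie on the timing scale of stem cells and whether they moved after dTAG.

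A timing score was given every 5 kb for each of 4 profiles, dTAG 1, dTAG 2, control 1 and control 2, and 514245 of 526745 positions had a score in all 4. Neither the formula nor the unit of the score is given. A high score was taken to mean early replication, because 20.3% of protein-coding genes scored below 0, against 50.2% of all 50 kb windows. For dTAG 1 the sample titles and the labelled fractions disagree on which sample is early, but over these genes its scores ran the same way as those of the other profiles. Once sorted, dTAG 1 and control 1 held the same numbers, and dTAG 2 held them with the opposite sign, so that replicate 1 had a median of 0.24 and replicate 2 a median of -0.24. Comparisons are therefore given within each replicate number as well, as dTAG 1 minus control 1 and dTAG 2 minus control 2. The depth behind a score is unknown. No label ties the replicates to separate cultures, so a p-value here reflects the spread between 4 profiles, which may be technical.

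The alpha and beta clusters lay on the 2 sides of a valley of late replication inside an early part of the chromosome, and the gamma cluster lay on its early shoulder. The locus, from the first to the last base of the 57 genes, spans chromosome 18 from 36930285 to 37841873, or 911.589 kb. Its mean score was 1.30 and 0.66 in dTAG 1 and 2, against 1.39 and 0.86 in control 1 and 2. The 1 Mb on its centromeric side scored 4.41 and 4.12 in the dTAG profiles, against 4.53 and 4.17 in the controls. The 1 Mb on its telomeric side scored 3.72 and 3.41 in the dTAG profiles, against 4.12 and 3.19 in the controls. In every profile the locus was later than both flanks, and the dTAG and control values overlapped in all 3 stretches. The gap was -3.26 ± 0.17 (SD, n = 4 profiles) to the centromeric and -2.56 ± 0.21 to the telomeric flank. An exact sign-flip permutation test gave p = 0.125 for each, 2-sided, which is the smallest p that 4 profiles allow. The telomeric flank itself turns late further out: with 2 Mb in place of 1 Mb, the locus was 0.17 above it.

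**Figure D1:**
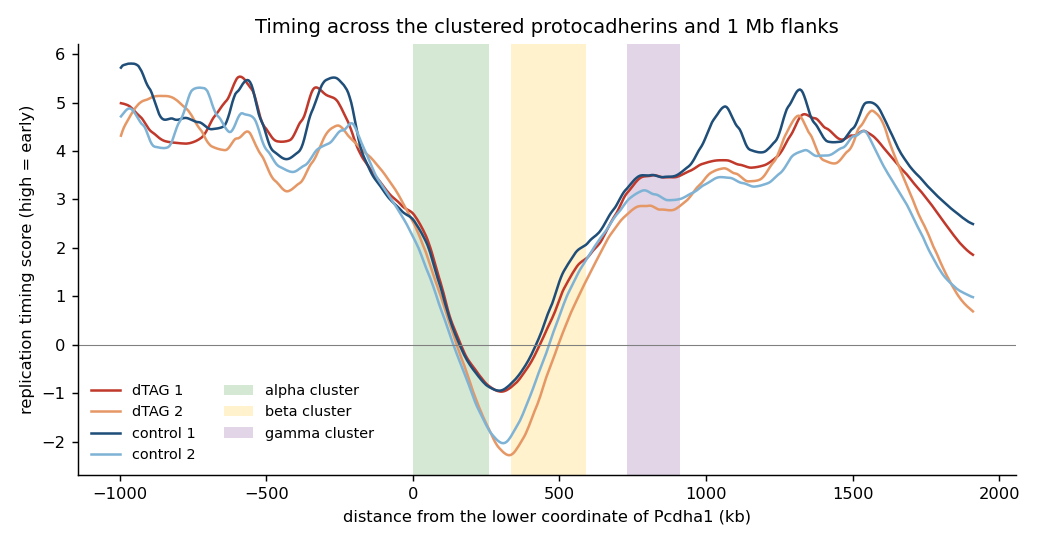
Replication timing score (y axis, score units, high is early) of the 4 profiles across the clustered protocadherins and 1 Mb on either side, by distance from the lower coordinate of Pcdha1 in kb (x axis), with the alpha, beta and gamma clusters shaded. All 4 profiles fall through the alpha cluster, reach their lowest scores of -0.97 and -2.28 (dTAG 1 and 2) and -0.95 and -2.03 (control 1 and 2) between 294.7 and 329.7 kb, climb through the beta cluster and level off over the gamma cluster.

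The bottom of the valley lay between the last alpha gene and the first beta genes. The lowest score was -0.97 and -2.28 in dTAG 1 and 2, against -0.95 and -2.03 in control 1 and 2, so the replicate numbers differed more than the groups. The stretch with scores below 0 was 269 and 346 kb wide in the dTAG profiles, against 261 and 326 kb in the controls. Over the mean of the 4 profiles, in windows of 50 kb, the late stretch measured 300 kb. The genome held 835 such late runs with a median length of 1000 kb, and 19.3% of them were no longer than this one. Its lowest window, at -1.50, was shallow for a late run, since 24.6% of runs had a lowest window at that level or above. The run is shorter than the 400 kb that the file name gives for the smoothing. Its depth was not compared with that of runs of like length, so it is no trait separate from the length. Of the 57 protocadherin genes, 11 had their midpoint in the late run, with 1 other protein-coding gene, Gm37013.

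The 3 clusters took different places on the slopes of this valley. The mean of the 14 alpha genes was 0.08 and -0.20 in dTAG 1 and 2, against 0.02 and -0.36 in control 1 and 2. The mean of the 22 beta genes was 0.66 and -0.26 in the dTAG profiles, against 0.92 and 0.25 in the controls. The mean of the 21 gamma genes was 3.47 and 2.80 in the dTAG profiles, against 3.48 and 3.04 in the controls. The gamma cluster was thus the earliest in all 4 profiles, and the alpha and beta clusters lay close together near the middle of the scale. Gamma genes stood 2.81 ± 0.21 above beta genes (SD, n = 4 profiles), and alpha genes stood at -3.31 ± 0.21 relative to gamma genes, each with an exact sign-flip permutation p of 0.125. Alpha minus beta was -0.51 ± 0.41, negative in 3 of 4 profiles (exact permutation p = 0.25). Among all scored genes, alpha genes ranked between the 14.9th and 22.2nd percentile, beta genes between the 13.2nd and 31.3rd, and gamma genes between the 48.4th and 49.8th. A mean score below 0 was found for 7 alpha, 8 beta and 0 gamma genes.

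**Figure D2:**
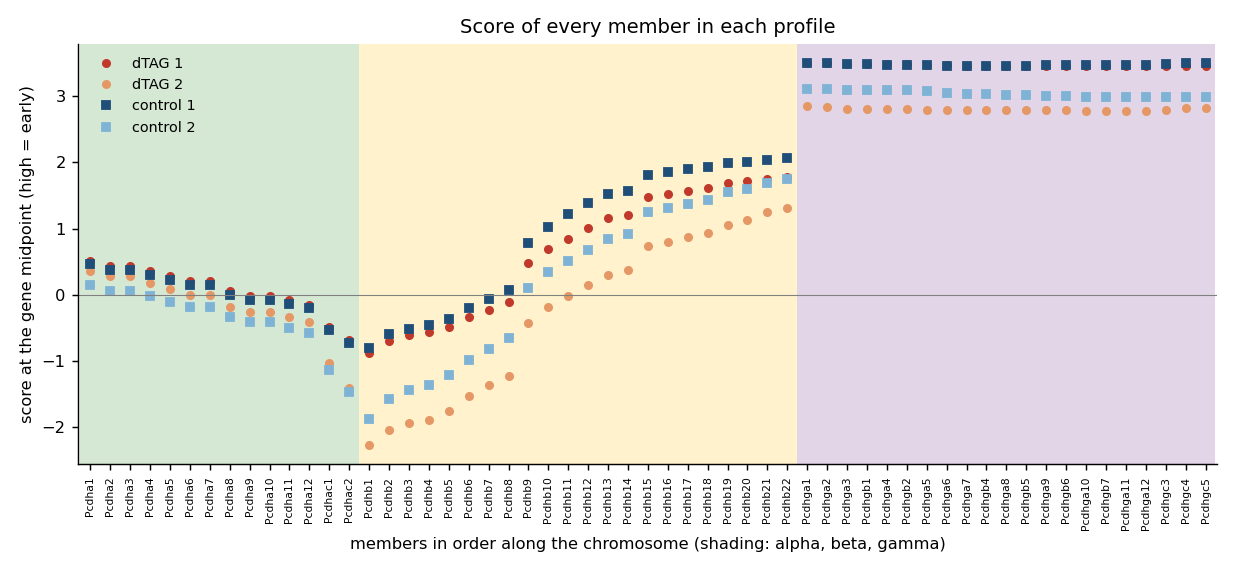
Score at the midpoint of each of the 57 genes (y axis, score units) in the order of the genes along the chromosome (x axis), with circles for the 2 dTAG and squares for the 2 control profiles. Alpha genes descend, beta genes ascend, and all gamma scores lie between 2.78 and 3.50.

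Within the alpha cluster (chromosome 18, 36930285 to 37188897), scores fell steadily along the chromosome. The 14 midpoints took 11 distinct positions, and the score dropped at 10 of 10 steps between them in every profile. These positions lie on one smoothed curve, so the steps are not separate observations. The slope was -1.16 and -1.70 units per 100 kb in dTAG 1 and 2, against -1.14 and -1.55 in control 1 and 2. Pcdha1, the first and highest-scoring gene of the cluster, had 0.51 and 0.36 in the dTAG profiles, against 0.46 and 0.15 in the controls. All 4 values were above 0, and the groups overlapped. Its neighbours Pcdha2 and Pcdha3 share 1 position and had the largest dTAG minus control difference of the cluster; they scored 0.43 and 0.28 in the dTAG profiles, against 0.37 and 0.06 in the controls. The 2 C-type genes at the end of the cluster were its latest, as the low end of this steady descent. Pcdhac1 scored -0.49 and -1.04 in the dTAG profiles, against -0.54 and -1.14 in the controls. Pcdhac2, the last gene, scored -0.69 and -1.42 in the dTAG profiles, against -0.73 and -1.47 in the controls. Both genes were below 0 in all 4 profiles, and so were the variable genes before them, Pcdha9 to Pcdha12.

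Where an alpha gene is read changes its score, because the alpha genes are long and end almost together. Their lengths ran between 44.0 and 257 kb with a median of 205 kb, and the 14 genes had only 4 distinct upper ends, so their midpoints lie downslope of the variable exons. At the lower coordinate of each gene, where the gene's own variable exon lies, the alpha mean was 1.81 and 1.51 in dTAG 1 and 2, against 1.71 and 1.25 in control 1 and 2. The mean over the 4 profiles was 1.57 there and -0.12 at the midpoint. Single alpha genes covered -0.86 to 2.53 at the lower coordinate, with Pcdha1 at the top and Pcdhac2 at the bottom. Beta genes, of 2.34 to 5.27 kb, had a mean of 0.37 at the lower coordinate and 0.39 at the midpoint. Gamma genes had 3.19 and 3.2. Read at the lower coordinate, the alpha cluster was the earlier one: alpha minus beta became 1.19 ± 0.42 (SD, n = 4 profiles), the opposite sign to that at the midpoint. Alpha minus gamma was -1.63 there, against -3.31 at the midpoint.

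**Figure D3:**
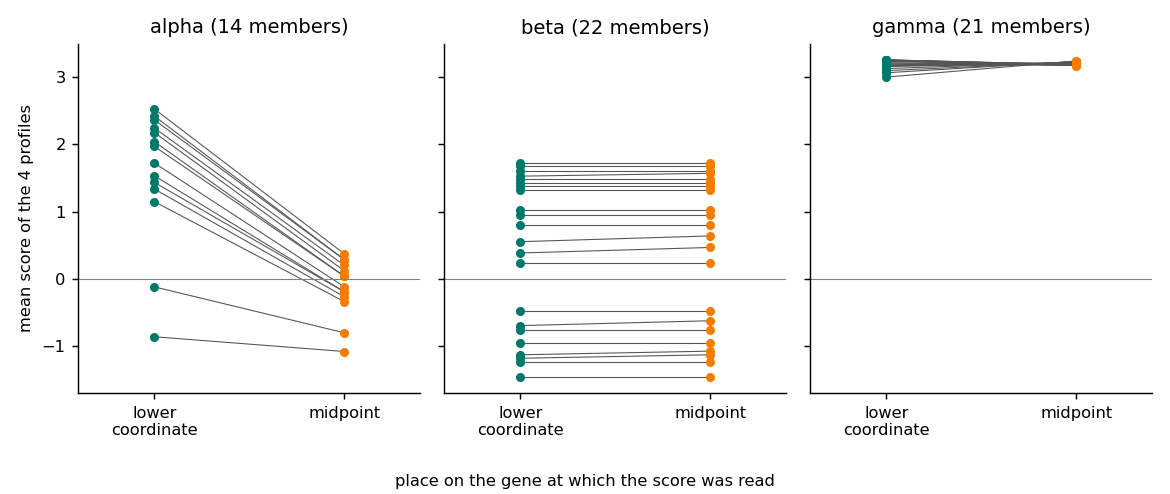
Mean score of the 4 profiles (y axis, score units) for each gene at its lower coordinate and at its midpoint (x axis), joined by a line, in the alpha, beta and gamma clusters. Alpha genes average 1.57 at the lower coordinate and -0.12 at the midpoint, while the beta and gamma means move by less than 0.1.

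The beta cluster (chromosome 18, 37264998 to 37521419) ran the opposite way, with scores that rose at 21 of 21 steps in every profile. Here too the steps follow one smoothed curve and are not separate observations. The slope was 1.17 and 1.53 units per 100 kb in dTAG 1 and 2, against 1.28 and 1.52 in control 1 and 2. Pcdhb1, the first gene, was the latest of all 57: it scored -0.88 and -2.27 in the dTAG profiles, against -0.80 and -1.89 in the controls. Pcdhb22, at the other end, scored 1.77 and 1.31 in the dTAG profiles, against 2.06 and 1.74 in the controls. Between these ends, within 256 kb, the 22 single-exon genes passed from the late to the early side of 0, Pcdhb8 with a mean over the 4 profiles of -0.48 and Pcdhb9 with 0.23. These last 2 genes were picked after their values were seen.

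The gamma cluster (chromosome 18, 37661775 to 37841873) was flat at the gene midpoints, which lie close together because the genes end almost together. Its 21 genes lay between 3.17 and 3.24 by their mean over the profiles, and within a profile they spread over 0.04 to 0.13 units. Pcdhga1, the first and earliest gene, scored 3.50 and 2.85 in dTAG 1 and 2, against 3.50 and 3.11 in control 1 and 2. Pcdhga12, the latest by midpoint by less than 0.01, scored 3.46 and 2.78 in the dTAG profiles, against 3.47 and 2.99 in the controls. At midpoints the last gene scored below the first in all 4 profiles, by 0.11 at most. Read at lower coordinates, it scored above the first in every profile. The 3 C-type genes at the end of the cluster lay within the narrow range of the midpoint scores. Pcdhgc3 scored 3.46 and 2.80 in the dTAG profiles, against 3.49 and 2.99 in the controls. Pcdhgc4 and Pcdhgc5, the last gene, share 1 position and scored 3.47 and 2.82 in the dTAG profiles, against 3.50 and 3.0 in the controls. The gamma cluster was nearly as early as the DNA beyond it, at -0.41 ± 0.25 relative to the telomeric flank (SD, n = 4 profiles, exact permutation p = 0.125).

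No clustered protocadherin passed the test between dTAG and control. limma, fitted over all 21523 genes with Benjamini-Hochberg adjustment and a threshold of 0.05, called 0 of the 57 genes, and it called 0% of all genes. At an unadjusted p under 0.05 it found 0 of the 57, against 0.794% of all genes. This fit leaves the replicate number out, so the offset between the replicate numbers enters its error. With so few genes under the threshold, 0 of 57 does not show that the genes stayed in place. With the replicate number as a block, 1653 of the 21523 genes and again 0 of the 57 had an unadjusted limma p under 0.05. In the 19 windows of 50 kb across the locus, the fit without a block also called 0, against 0% of 51425 windows. Their smallest unadjusted limma p was 0.377. With the block, the smallest unadjusted limma p was 0.0577 among these windows and 0.0602 among the 57 genes, at Pcdhb12. For none of the 57 genes did both dTAG profiles lie on one side of both controls, a pattern held by 8.42% of all genes toward later and 10% toward earlier replication. This count of 0 depended on the scale: with all 4 profiles brought to one distribution, both dTAG profiles lay below both controls for 14 of the 57 genes, all of them in the beta cluster, against 13.7% of all genes. With 2 profiles a group, an exact permutation test cannot give a p below 0.333.

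The directions within replicate numbers differed by cluster, and the gaps were largest in the beta cluster. All 22 beta genes scored lower after dTAG in both replicate numbers, a state found in 30.6% of all genes. Their mean was 0.20 ± 0.66 in the dTAG profiles and 0.58 ± 0.47 in the controls (SD, n = 2 each). The difference was -0.38 (-0.25 in replicate 1, -0.51 in replicate 2), and its exact permutation p was 0.667. It was -0.85 without dTAG 1, -0.72 without control 2, -0.047 without control 1 and 0.082 without dTAG 2, and each of these sets an uneven mix of replicate numbers against the other group. In 14 of the 22 genes the dTAG score was lower by at least 0.25 in both replicate numbers, against 9.76% of all genes. The 22 midpoints lie within 256 kb, less than the 400 kb that the file name gives for the smoothing, so they share reads and do not count as 22 separate observations. Across all genes the median difference was -0.02 and its median size 0.18.

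Pcdhb12 had the lowest difference of the cluster. It scored 1.01 and 0.14 in dTAG 1 and 2, against 1.39 and 0.68 in control 1 and 2. Each dTAG value lay under the control of the same number, but dTAG 1 lay above control 2, so the groups overlapped. The difference was -0.46 with an SE of 0.47, and limma's adjusted p was 0.9999, or 0.658 with the replicate number as a block. Pcdhb1 had the smallest gap, -0.23, with -0.07 in replicate 1 and -0.38 in replicate 2. At Pcdhb22 the difference was -0.36, with -0.29 and -0.44 within the replicate numbers. With all 4 profiles on one distribution, the median difference of the 22 genes was -0.39.

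**Figure D4:**
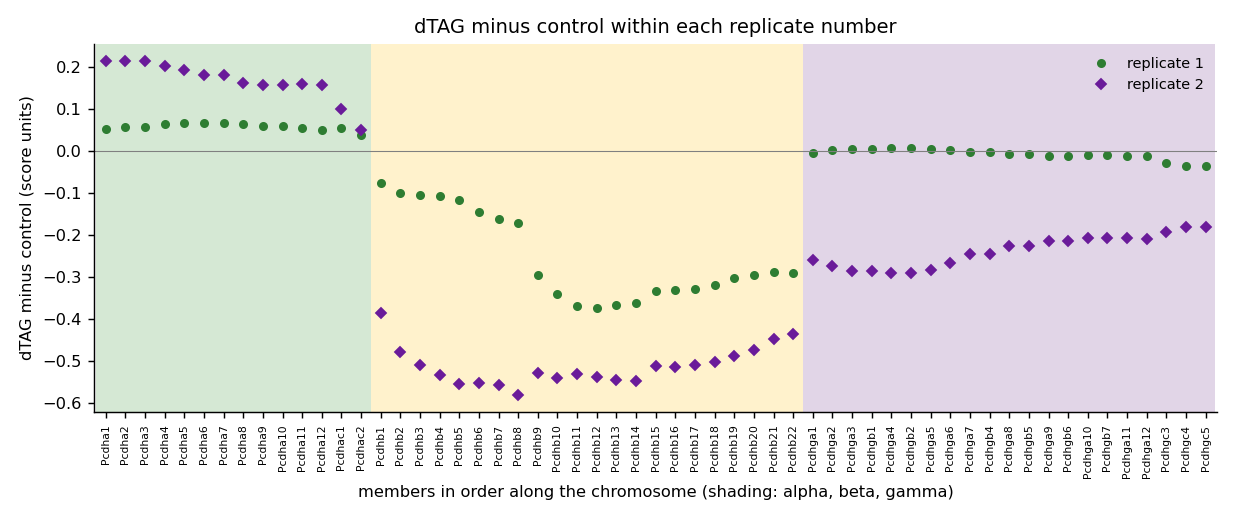
dTAG minus control difference (y axis, score units) at each of the 57 genes in the order along the chromosome (x axis), with circles for replicate 1 and diamonds for replicate 2. Alpha genes lie above 0 in both, beta genes lie below 0 in both, and gamma genes lie near 0 in replicate 1 and below 0 in replicate 2.

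Alpha genes showed small differences of the opposite sign. All 14 scored higher after dTAG in both replicate numbers, against 25.3% of all genes. Their midpoints take 11 positions on one smoothed curve, so they do not count as 14 separate observations. Their mean was -0.06 ± 0.19 in the dTAG profiles and -0.17 ± 0.27 in the controls (SD, n = 2 each), a difference of 0.11 with 0.06 in replicate 1 and 0.17 in replicate 2 (exact permutation p = 0.667). It was -0.02 without dTAG 1, -0.076 without control 2, 0.25 without dTAG 2 and 0.30 without control 1. The differences of single alpha genes ran from 0.05 at Pcdhac2 to 0.14 at Pcdha2 and Pcdha3, where the SE was 0.32. Read at the lower coordinate, the alpha difference was 0.18, equal at this precision to the median size over all genes at their midpoints.

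Gamma genes differed by -0.12, with -0.01 in replicate 1 and -0.24 in replicate 2 (exact permutation p = 0.667). Their mean was 3.14 ± 0.47 in the dTAG profiles and 3.26 ± 0.31 in the controls (SD, n = 2 each). The difference was 0.21 without dTAG 2, 0.10 without control 1, -0.34 without control 2 and -0.46 without dTAG 1. In 14 of the 21 genes dTAG was lower in both replicate numbers, against 30.6% of all genes, and in the other 7 the signs differed. This split rests on replicate 1 differences between -0.03 and 0.01, at midpoints that share one smoothed curve. The lowest difference, -0.14, was shared by Pcdhga4 and Pcdhgb2 at 1 position, which scored 3.49 and 2.80 in dTAG 1 and 2, against 3.48 and 3.09 in control 1 and 2. The C-type genes Pcdhgc4 and Pcdhgc5 shared the highest, at -0.11. Whether the effect of dTAG differs between the clusters was not tested.

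Within each replicate number, the edges of the valley lay slightly nearer the telomere after dTAG, and the valley was also wider. On its beta side the score crossed 0 at 433 and 496 kb from the start of Pcdha1 in dTAG 1 and 2, against 420 and 464 kb in control 1 and 2. On its alpha side it crossed 0 at 164 and 149 kb in the dTAG profiles, against 159 and 138 kb in the controls. The groups overlapped at both crossings, and within each replicate number dTAG was further along. Read at scores of 0, 1 and 2 on either side, all 12 within-replicate shifts pointed toward the telomere, between 4.03 and 49.8 kb in size. The smallest is below the 5 kb spacing of the positions, and all come from the same smoothed curves. At each of these scores the valley was wider after dTAG in both replicate numbers, by 8.53 to 43.6 kb. Its lowest score differed by -0.02 in replicate 1 and -0.25 in replicate 2. The crossing of 2 on the beta side was the only one without overlap, at 623 and 648 kb in the dTAG profiles, against 573 and 617 kb in the controls. These levels were chosen with the profiles known, and no test was made of them.

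One window of the locus, from 37550001 to 37600000 between the beta and gamma clusters, had both dTAG profiles below both controls. It scored 2.21 and 1.98 in dTAG 1 and 2, against 2.44 and 2.26 in control 1 and 2. It was 1 of 19 windows, where 8.53% of all windows had this pattern and 10.9% the reverse. No window of the locus had the reverse. Within replicate numbers, 13 of the 19 windows were lower and 6 were higher after dTAG in both. The share of all windows with these patterns was not computed, so the counts have no background. Neighbouring windows also share one smoothed curve and are not separate observations.

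Genes around and among the protocadherins marked the edges of the valley. On the centromeric side 23 genes scored between 3.61 and 5.05. The nearest and latest of them, Zmat2, a zinc finger gene 131 kb below Pcdha1, had 3.54 and 3.81 in the dTAG profiles, against 3.48 and 3.61 in the controls. The earliest, Psd2, an exchange factor for ARF6, had 4.77 and 4.94 in the dTAG profiles, against 5.78 and 4.71 in the controls. All 23 genes were thus earlier than every protocadherin of the locus by their mean over the profiles.

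On the telomeric side 15 genes that lie at least partly in the flank scored between 1.14 and 4.67 at their midpoints. Diaph1, a formin gene whose lower coordinate lies 1.73 kb beyond the gamma cluster, had 3.64 and 3.18 in the dTAG profiles, against 3.84 and 3.15 in the controls. The earliest was Dele1, a mitochondrial stress gene, at 4.73 and 4.69 in the dTAG profiles, against 5.25 and 3.99 in the controls. The latest was Arhgap26, a gene for a GTPase-activating protein, at 1.27 and 0.29 in the dTAG profiles, against 2.14 and 0.88 in the controls. It runs past the end of the flank and was scored beyond that end, as was Fgf1. The latest gene with its midpoint inside the flank was Gm19774, at a mean over the profiles of 2.36. Fgf1 and Gm19774 fall outside the rule for named genes. In each of these flank genes dTAG and control values overlapped.

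Inside the locus, Slc25a2 and the TFIID subunit gene Taf7 lie between the beta and gamma clusters, share 1 position and scored 2.91 and 2.57 in the dTAG profiles, against 3.05 and 2.80 in the controls. The other 3 genes inside, Gm37013, Gm38666 and Gm38667, carry alpha protocadherin synonyms but not a family symbol. They span the alpha to the gamma cluster, and their midpoints fall in the beta cluster, with means over the profiles of 0.16, 0.31 and 0.39.

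The clustered protocadherins were earlier, on the mean, than 3 lists of related adhesion genes. Their 57 scores ran between -1.46 and 3.24 with a median of 1.32, and 15 were below 0, against a median of 3.25 for all genes. Of 12 non-clustered protocadherins, which lie outside these clusters and have similar extracellular domains, 9 scored below 0, and the median was -3.72. Pcdh9 was the latest of these, at -4.99 and -4.96 in dTAG 1 and 2, against -4.66 and -3.93 in control 1 and 2. Pcdh12, a gene of endothelial adhesion that lies 425 kb beyond the gamma cluster, was the earliest, at 4.74 and 4.45 in the dTAG profiles, against 4.94 and 4.01 in the controls. On the mean, the clustered genes stood 3.23 ± 0.44 above the non-clustered ones (SD, n = 4 profiles), 1.68 ± 0.30 above 18 classical cadherins and 0.77 ± 0.18 above 9 large cadherins of the Fat, Dchs and Celsr families. By the median the order was the other way for the large cadherins, at 1.53. Each difference of means had the same sign in 4 of 4 profiles, with an exact sign-flip permutation p of 0.125.

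The classical cadherins covered nearly the whole scale, with Cdh15 of muscle at a mean of 5.12, Cdh7 at -4.37 and 10 of 18 below 0. The large cadherins were as scattered, with Celsr3, a planar polarity gene, at 4.49, Fat4 at -5.06 and 3 of 9 below 0. Genes known to act on the protocadherin clusters, such as Ctcf, the cohesin subunit genes and the DNA methyltransferase genes, were all early. These 19 genes scored between 3.16 at the cohesin loader gene Nipbl and 4.53 at Ehmt2, a histone methyltransferase gene, and the protocadherins stood at -2.47 ± 0.19 relative to them. The 10 genes of protocadherin signalling, for kinases and actin regulators, scored between 1.65 at Ptk2b and 4.02 at Rac1, and the protocadherins stood at -1.89 ± 0.33 relative to them.

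Of 2 other tandem gene families, one was earlier and the other later. The 39 Hox genes, regulators of body pattern in 4 clusters, were all above 0, between 2.20 at Hoxd1 and 5.38 at Hoxa3, and the protocadherins stood at -3.17 ± 0.28 relative to them (SD, n = 4 profiles). Of 239 olfactory receptor genes on chromosome 7, 161 were below 0, between -4.03 at Olfr310 and 3.84 at Olfr1344, and the protocadherins stood 2.22 ± 0.32 above them. The exact permutation p was 0.125 for each list.

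**Figure D5:**
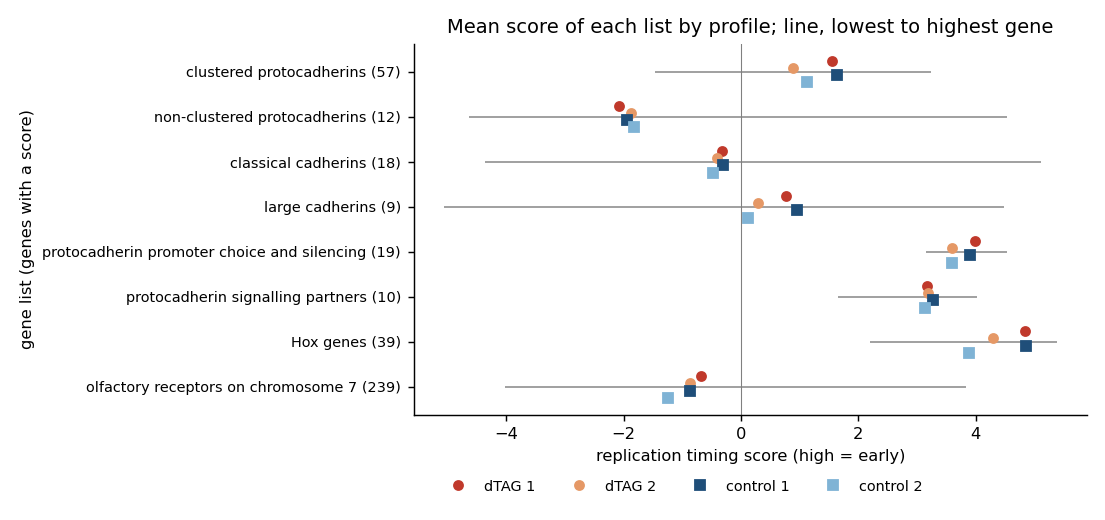
Mean score (x axis, score units) of the clustered protocadherins and of 7 other gene lists (y axis, number of scored genes in brackets) in each profile, with circles for the 2 dTAG and squares for the 2 control profiles, and a line from the lowest to the highest gene by its mean over the profiles. The clustered protocadherins lie between 0.88 and 1.64 in the 4 profiles, above the olfactory receptors and non-clustered protocadherins and below the Hox genes.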

How the data were processed

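The 8 samples stand behind 4 deposited columns, mapped to dTAG and control by the names in the file headers. The values deposited are scores above or below 0 at positions 5 kb apart, which the authors smoothed with Loess and quantile normalized, per the file headers and name. Bowtie2, SAMtools, bedtools and mm10 are named in the submitters' processing notes. Each gene took the score of the position nearest its midpoint in a RefSeq table of GRCm38.p6, which gives no strand, and 108 of 21631 protein-coding genes on 19 autosomes and X had none. Windows of 50 kb needed values in at least 0.5 of 10 positions. dTAG was set against control with limma 3.58.1 under R 4.3.3 (lmFit, eBayes, group alone in the model, 2-sided, Benjamini-Hochberg). This fit was also run on simulated data with independent noise in each profile and effects larger than any difference in the locus. That run does not show its power for differences of the size seen here. Cluster values were compared by exact permutation of profiles, with matplotlib 3.10.9 and Python 3.11.15 for plots.

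The genes and lists were chosen with earlier results of these data known. Named were, in each cluster, the first, last, highest and lowest genes by score and difference and all C-type genes; in each flank the nearest, highest and lowest; in each other list the highest and lowest by score and difference, except 1 gene that is not reported here. No sequence is shown for this locus. Alternatives were other windows and flanks, the lower coordinate, one distribution for all profiles, the replicate number as a block, and each profile left out.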

Additional observations from a re-analysis of the deposited data

How the results depend on the processing

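Of 82 recomputed values, 69 kept their direction and their side of the threshold, or moved by less than the spread. Of these, 3 are the cluster differences with the block, which a balanced design leaves as they are. Leaving out 1 profile in turn, which unbalances the replicate numbers, gave a dTAG minus control difference between -0.076 and 0.30 in the alpha, between -0.85 and 0.082 in the beta and between -0.46 and 0.21 in the gamma cluster. The alpha value was below 0 without dTAG 1 (-0.02) and without control 2 (-0.076), the beta value above 0 without dTAG 2 (0.082), and the gamma value above 0 without dTAG 2 (0.21) and without control 1 (0.10). At the lower coordinate alpha minus beta reversed to 1.19, alpha minus gamma was -1.63 and the alpha difference 0.18, and locus minus telomeric flank reversed to 0.17 with 2 Mb flanks. limma called 0 to 4 windows and 0 to 5 genes with 1 profile left out (3 windows and 4 genes without dTAG 1, 4 and 5 without dTAG 2).

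With a replicate block limma called 0 windows and 0 genes. The cluster differences of 0.11, -0.38 and -0.12 cannot change under it. The replicate numbers moved together in both groups (r = 0.765 over 51425 windows), but no label ties a number to a shared day or culture. The replicate block with trended and robust variance, chosen after seeing the data, called 1462 of 51425 windows and 559 of 21523 genes. It called 0 of the 19 windows of the locus and 0 of the 57 clustered protocadherins. At so low a share of all genes and windows, these counts of 0 say little about the locus. The smallest adjusted p of a clustered protocadherin in this limma fit was 0.179, in the beta cluster. Why this fit called more was not tested. Scores carry no depth, so no counting error could be given.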

Other observations

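In the centromeric flank, 4 of 23 genes had both dTAG profiles below both controls, against 8.42% of all genes, and these 4 are neighbours on one smoothed curve. Cd14, the gene for a co-receptor of bacterial lipopolysaccharide, scored 4.35 and 4.22 in dTAG 1 and 2, against 4.87 and 4.57 in control 1 and 2. Tmco6, Ndufa2 and Ik beside it had differences of -0.29, -0.23 and -0.17, and all 4 genes stayed above 3.9 in every profile. These genes fall outside the rule for named genes and were picked after their values were seen.

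Among the other lists limma also called 0 genes. In the signalling list, Ptk2b, a kinase gene for a relative of FAK, scored 1.39 and 0.86 in the dTAG profiles, against 2.54 and 1.82 in the controls, a difference of -1.05, while Rac1 differed by 0.37. Of the cadherins, Cdh19 had a difference of 0.96 and Cdh11 one of -0.59, and of the large cadherins Fat3 had 0.58 and Celsr1 -0.58. Pcdh18 differed by 0.29 and Pcdh9 by -0.68. Smc3, a cohesin subunit gene, differed by 0.43 and Ehmt2 by -0.35. Hoxb2 differed by 0.73. Of the 239 olfactory receptor genes on chromosome 7, 112 had both dTAG profiles above both controls, against 10% of all genes, and 9 had the reverse, against 8.42%, with a median difference of 0.27, from 1.60 at Olfr693 to -0.99 at Olfr291. Neighbouring receptor genes share smoothed scores and are not independent.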
